A study of Homo sapiens with 6 samples.

Results

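Wnt proteins are secreted signals that cells read through several families of surface receptors. The 43 genes described here encode the receptor tyrosine kinases ROR1, ROR2 and RYK, Wnt ligands and their acyltransferase, Frizzled receptors, LRP co-receptors, the proteins that pass the signal to beta-catenin and the TCF factors, Wnt feedback genes and planar polarity genes. They were taken by symbol from the 38637 genes of the deposited table, and all 43 were found. The list was drawn up with results of the same comparison known, and ROR1 heads it because it passed the thresholds for a lower level after knockdown. The members' values in that comparison are therefore a description and support nothing by themselves.

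PolyA-Seq was performed on HCCLM3-SR, a human hepatocellular carcinoma line made resistant to the multikinase inhibitor sorafenib by long growth under rising doses of it. One group had 3 libraries from cells transfected with si-cDCBLD2, an siRNA against the circular RNA cDCBLD2, and the other had 3 libraries from cells given control siRNA. Both groups carried the siRNA for 3 days and were kept in 5 µM sorafenib, so no library shows the cells without the drug, and the parental HCCLM3 line is not among the 6 libraries. All values come from a single resistant line, and the labels do not say whether the replicates were separate cultures, so p-values measure the spread between these libraries, which may be technical.

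In the branch of the pathway that runs through beta-catenin, a Wnt protein brings a Frizzled receptor together with LRP5 or LRP6, Dishevelled proteins are recruited, and the complex of AXIN, APC and GSK3 that marks beta-catenin for destruction is held back. Beta-catenin, encoded by CTNNB1, then joins TCF or LEF factors on DNA, and targets such as AXIN2, DKK1 and NOTUM feed back on the signal. ROR1, ROR2 and RYK also bind Wnt proteins, and WNT5A is the best known ligand of the ROR receptors, which act largely through branches that do not need beta-catenin. ROR1 is an embryonic receptor that reappears in several cancers. Mutations of CTNNB1, AXIN1 and APC are well known in liver tumours.

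The study links cDCBLD2 to miR-345-5p, a microRNA that the circular RNA can bind. Its mature sequence, from RefSeq on GRCh38.p14 at chr14:100307876-100307897 on the + strand, is shown with its seed, bases 2 to 8, in capitals, because the complement of the seed was searched for in the members' transcripts.
hsa-miR-345-5p: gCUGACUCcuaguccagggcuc

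The complement of this seed, GAGTCAG, was searched for on the sense strand of the longest coding transcript of each gene in GENCODE release 29 on GRCh38. Among the 34 members that could be tested, 4 held it in the coding sequence (DVL1, APC, LRP6 and DVL2) and 2 in the 3′ UTR (FZD5 and WNT3). These shares were 11.8% and 5.9%, against 13.1% and 9.1% of the 11536 genes tested that have a coding transcript, so neither share was above that of genes in general. FZD3, too low to be tested, held it in the 3′ UTR as well. The sites in APC and LRP6 are shown because these genes are among the lowest after knockdown by fold change, and the site in DVL1 because that gene is not. The match is in capitals with 10 transcript bases on either side. The APC match lies at chr5:112841092-112841098 on the + strand in exon 16, the LRP6 match at chr12:12149118-12149124 on the − strand in exon 14, and the DVL1 match at chr1:1337987-1337993 on the − strand in exon 14, all in coding sequence.
APC: aatgaagataGAGTCAGaggaagtttt
LRP6: gctcagttccGAGTCAGaacctggaaa
DVL1: gcagcaccggGAGTCAGcagagtgaag

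ROR1 held no match in its longest coding transcript. The median log2 fold change of the 4 members with a coding match was -0.47, from 2 near -0.88 and 2 near 0, and that of the 28 members without a match was -0.03. Over all genes, the corresponding medians were -0.13 and -0.08. A match of 7 letters is a description of the sequence and not a measured site of binding.

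Letters bound by TCF and LEF factors were searched for in the promoters that RefSeq gives for 31 of the 43 members, 40 windows running from 250 bases before to 50 after each start. The motifs were CTTTGAT and CTTTGAA on both strands, and 2 windows, those of DKK1 and SP5, held at least 1 of them. This was 5.0% of the members' promoters against 6.9% of all 35116 and 4.1% of the 15006 promoters of genes tested. The DKK1 window is shown because DKK1 had the largest positive fold change of the members, and that of SP5, a gene with almost no reads here, for comparison. Capitals mark the motif. The windows lie at chr10:52314179-52314199 and chr2:170715221-170715241 of GRCh38, both on the + strand.
DKK1: cccagcgCTTTGAAatcccat
SP5: cgctattCTTTGATgattggg

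The authors deposited TPM, a unit that corrects read numbers for gene length and gives every library the same total of 1000000, so levels can be compared between genes. The values of a group are listed below in the order of replicates 1, 2 and 3. Reads recovered from the ratios of the TPM values came to between 17489570 and 23059351 per library, as lower bounds. The reads given for single genes are lower bounds too. Replicate 1 stood apart from replicates 2 and 3 in both groups, and same-numbered libraries deviated together. A fit with the replicate number as a block is therefore given where it changes a call. That replicates 2 and 3 pair by number, apart from the shift of replicate 1, is assumed in the block and was not tested. DCBLD2, the host gene of cDCBLD2, read 58.1, 25.9 and 31.6 TPM across the knockdown and 71.5, 48.5 and 50.7 TPM across the controls, with overlapping groups and an adjusted p of 0.253 by limma, and of 0.0139 with the block. A gene table cannot separate the circular RNA from its host gene, so the knockdown itself is not checked by these values. Of 13 liver markers, KRT8, KRT18 and HNF4A were well above 1 TPM in every library, whereas the plasma protein genes that define hepatocytes were low. APOB was at 0.902 to 4.26 TPM and SERPINA1 at 1.3 to 3.0 TPM, ALB, APOA1 and TTR stayed below 2 TPM, and TF and FGB were near 0. Of 5 endothelial markers PECAM1 alone had a mean of at least 1 TPM, at 3.63 to 5.64 TPM, and CLEC14A was at 0 in all 6 libraries. Of 6 leukocyte markers 3 had such a mean, CD68 at 90.0 to 125 TPM, LYZ and CD79A, while PTPRC stayed under 0.5 TPM and CD3E was at 0. Of 7 fibroblast and stellate markers 4 were tested and had positive log2 fold changes, with a median of 0.63 and summed levels of 36.2 to 80.5 TPM after knockdown and 34.2 to 46.1 TPM in controls. COL1A1 at 279% and COL3A1 at 393% of the control mean did not overlap between groups, and their adjusted p was 0.196 and 0.0635 by limma, and 0.0132 and 0.00787 with the block. The 12 proliferation markers all had a negative log2 fold change, with a median of -0.55 and summed levels of 962 to 1440 TPM after knockdown and 1330 to 1980 TPM in controls.

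Of the 43 members, 34 had a mean of at least 1 TPM and entered the fit, limma's moderated test on log2(TPM + 1), in which p was adjusted by the Benjamini-Hochberg method across 13980 genes. On this scale the fold changes of genes with low levels are understated. The 9 that did not enter were ROR2, WNT5B, FZD3, FZD8, LEF1, NKD1, SP5, VANGL2 and PRICKLE1. Mean levels over the 6 libraries ran from near 0 for ROR2 and VANGL2 to 452 TPM for LRP5.

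**Figure D1:**
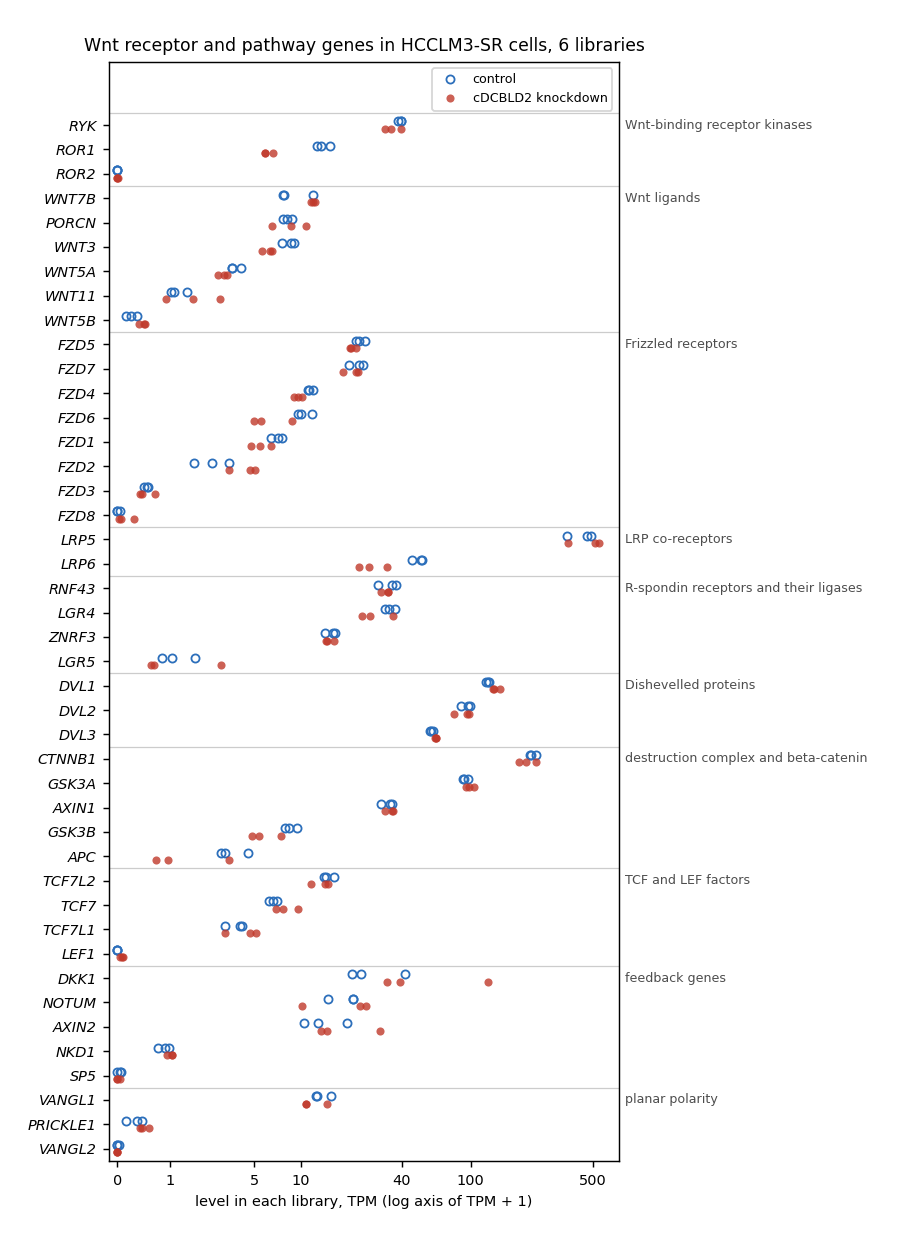
Level of each of the 43 genes in each of the 6 libraries, in TPM on a log axis of TPM + 1, grouped by role; filled points are cDCBLD2 knockdown libraries and open points control libraries. ROR1 and LRP6 show the clearest gap between groups, LRP5 lies highest, and ROR2, LEF1, SP5 and VANGL2 lie at or near 0.

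ROR1 stood at 6.64, 5.87 and 5.87 TPM after knockdown and at 13.3, 12.5 and 15.2 TPM in the controls. Every knockdown library was below every control library, and the knockdown mean was 44.9% of the control mean (6.12 ± 0.443 against 13.7 ± 1.37 TPM, SD, n = 3). Its log2 fold change was -1.04 with a standard error of 0.11 and an adjusted p of 0.0444 by limma. ROR1 was the 1 member called lower at an adjusted p under 0.05, and no member was called higher. Over all genes tested, 0.629% were called lower and 0.25% higher. At an unadjusted p under 0.05 there were 8 of 34 members, where 26.1% of all genes were. In this fit ROR1 was also the 1 member past both thresholds of the study. These are an adjusted p under 0.05 and a log2 fold change over 1 in size, set there on DESeq2, a different test. Of all genes, 0.0787% passed both as lower and 0.0501% as higher. With the block and an offset for transcript GC content, DKK1 passed both (1.25, adjusted p 0.00981 by limma) and ROR1 did not (-0.79). In limma-voom on recovered reads with the block, ROR1 (-1.06), DKK1 (1.2) and APC (-1.14) passed both. Shares of all genes past both in these settings are not reported here.

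The difference in ROR1 was seen in each pair of libraries of the same number, at -0.91, -0.97 and -1.23 on the log2 scale. With the replicate block its adjusted p was 0.00444. The gene spans chr1:63774022-64181498 on the + strand, and 463 to 1221 reads per library lay behind its values. After an offset for transcript GC content its log2 fold change was -0.79, with an adjusted p of 0.0561 without the block and 0.0057 with it. Leaving out single libraries gave values between -1.1 and -0.97, and the adjusted p was 0.0125 without knockdown replicate 1 but between 0.15 and 0.222 without knockdown replicate 2 or 3 or any of the control replicates. With no filter on low values it was 0.0673. The 12 proliferation markers given above all had negative values in the same comparison and the 4 fibroblast and stellate markers positive ones, and their part in the ROR1 result was not tested.

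ROR2, the close relative of ROR1, was at 0.014 TPM in knockdown replicate 2 and at 0 in the other 5 libraries. A count of 0 allows up to 3 reads, so ROR2 mRNA was at or under the limit of detection in both groups and no fold is given. RYK, a Wnt receptor with an inactive kinase domain, had the highest level of the 3 kinases, at 39.8, 34.9 and 32.1 TPM after knockdown and 38.2, 39.5 and 39.6 TPM in controls. Its groups overlapped, with means of 35.6 ± 3.94 and 39.1 ± 0.745 TPM (SD, n = 3) and a log2 fold change of -0.14 (standard error 0.094, adjusted p 0.387 by limma). The sign of the RYK value turned under the GC-content offset, to 0.30, and it passed as higher there with the block (adjusted p 0.0159 by limma).

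LRP6, a co-receptor that carries the Wnt signal into the beta-catenin branch, was at 32.7, 22.4 and 25.7 TPM in the knockdown libraries and at 52.3, 46.2 and 51.7 TPM in the controls. The groups did not overlap, and the knockdown mean was 53.8% of the control mean (26.9 ± 5.22 against 50.0 ± 3.36 TPM, SD, n = 3). By limma its log2 fold change was -0.88 (standard error 0.14, adjusted p 0.0526), just outside the threshold. With the block the adjusted p was 0.00458. With both the GC-content offset and the block the log2 fold change was -0.53 and the adjusted p 0.00602.

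For LRP5, the paralogue of LRP6, the groups overlapped. It was at 358, 510 and 538 TPM after knockdown and at 356, 462 and 489 TPM in controls, the highest level of any member, for a log2 fold change of 0.10 (standard error 0.19, adjusted p 0.776 by limma). Replicate 1 was the lowest library for LRP5 in both groups. As a percentage of the LRP5 level within each library, LRP6 was 9.13, 4.4 and 4.77% after knockdown and 14.7, 10.0 and 10.6% in controls, so LRP6 mRNA was the minor co-receptor transcript in every library.

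**Figure D2:**
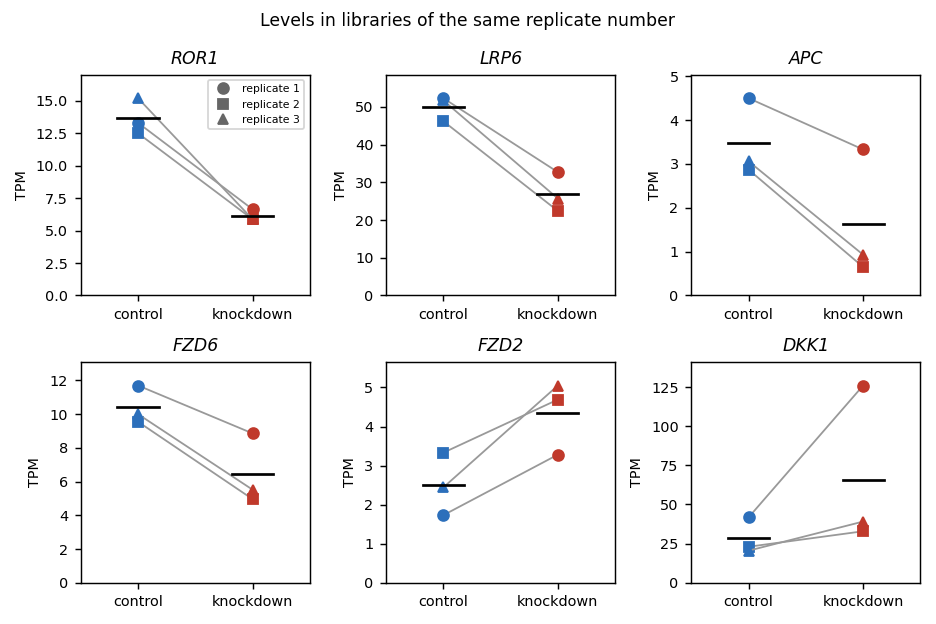
Level in TPM of ROR1, LRP6, APC, FZD6, FZD2 and DKK1 in control and knockdown libraries, with grey lines joining libraries of the same replicate number, a symbol for each number, and black bars for group means. The lines of ROR1, LRP6, APC and FZD6 all go down from control to knockdown and those of FZD2 and DKK1 all go up, while knockdown replicate 1 stands far above the other libraries for DKK1.

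Of the 8 Frizzled receptors, the 7-pass receptors that bind Wnt directly, FZD5 and FZD7 made up most of the transcripts. FZD5 was at 20.0, 20.1 and 21.7 TPM after knockdown and 21.6, 22.6 and 24.4 TPM in controls, a log2 fold change of -0.14 (standard error 0.084, adjusted p 0.318 by limma). FZD7 was at 18 to 22.3 TPM after knockdown and 19.6 to 23.7 TPM in controls. Together the 2 held 56.7 to 62.9% of the summed Frizzled TPM in every library, and the groups overlapped in this share. FZD4 followed at 9.62 ± 0.586 against 11.4 ± 0.389 TPM, then FZD6, FZD1 and FZD2. FZD5 and FZD7 were not separated by more than their spread. FZD3 stayed under 0.7 TPM in every library, and FZD8 was at or under 0.249 TPM.

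FZD6, which is better known for polarity signals than for the beta-catenin branch, was at 8.86, 4.96 and 5.52 TPM in knockdown libraries and 11.7, 9.55 and 10.0 TPM in controls. The groups did not overlap, though knockdown replicate 1 came close to the controls. Its mean was 61.9% of the control mean, for a log2 fold change of -0.65 (standard error 0.21, adjusted p 0.122 by limma, and 0.0125 with the block). The GC-content offset with the block left a log2 fold change of -0.25 and an adjusted p of 0.0647.

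FZD2 differed in the other direction. It was at 3.28, 4.69 and 5.05 TPM after knockdown and 1.73, 3.33 and 2.44 TPM in controls, from 44 to 167 reads per library, and the lowest knockdown library lay just below the highest control. The log2 fold change was 0.62 (standard error 0.22, adjusted p 0.145 by limma), and the adjusted p was 0.0172 with the block and 0.0328 with the block and the GC-content offset. Of the 6 Frizzled receptors tested, 5 had a negative and 1 a positive log2 fold change, with a median of -0.19 against -0.08 for all genes, and 1 was called in each direction with the block. In limma-voom on recovered reads the sign of FZD7 turned and the split was 4 against 2.

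Among the Wnt ligands, WNT7B was highest, at 11.9, 11.6 and 12.3 TPM after knockdown and 11.9, 7.69 and 7.8 TPM in controls. Control replicate 1 was as high as the knockdown libraries, so the groups overlapped, and limma gave a log2 fold change of 0.38 (standard error 0.17, adjusted p 0.212). WNT3, a ligand of the beta-catenin branch, was at 6.58, 5.62 and 6.33 TPM against 9.02, 7.58 and 8.62 TPM. These groups did not overlap, and the log2 fold change was -0.39 in the fit (adjusted p 0.107 by limma) with nearly the same value in each pair, from -0.40 to -0.37. With the block the adjusted p was 0.0176, and with the GC-content offset as well the log2 fold change was -0.35 and the adjusted p 0.0214.

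WNT5A, the ligand best known for ROR receptors, was at 3.19, 2.71 and 3.01 TPM after knockdown and 4.04, 3.49 and 3.48 TPM in controls. Its groups did not overlap, but the log2 fold change of -0.23 (adjusted p 0.27 by limma, 0.135 with the block) was small and turned to 0.07 under the GC-content offset. WNT11 lay at 0.891 to 2.82 TPM and WNT5B at 0.115 to 0.438 TPM. PORCN, the acyltransferase that Wnt proteins need for secretion, was at 8.65 ± 2.12 TPM after knockdown and 8.23 ± 0.576 TPM in controls.

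The R-spondin receptors and the ligases they restrain set how many Frizzled receptors stay at the surface. RNF43, such a ligase, was at 30.4, 33.5 and 33.4 TPM after knockdown and 29, 35.1 and 37.3 TPM in controls, a log2 fold change of -0.05 (standard error 0.11, adjusted p 0.788 by limma). ZNRF3, its paralogue, was at 14.9 ± 0.849 against 15.3 ± 1.05 TPM. LGR4 was at 28.5 ± 6.46 against 34.2 ± 2.26 TPM, and LGR5 was low and uneven, at 2.9, 0.611 and 0.563 TPM after knockdown and 1.77, 0.793 and 1.05 TPM in controls. None of the 4 was called, with or without the block, although all 4 log2 fold changes were below 0. That sign did not hold under other scalings, with 1 of 4 negative after upper-quartile scaling or the GC-content offset and 2 of 4 in limma-voom.

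The 3 Dishevelled genes, whose products carry the signal from receptor to cytoplasm, were all well expressed. DVL1 led with 135, 137 and 147 TPM after knockdown and 123, 125 and 127 TPM in controls, and DVL3 was at 62.9 ± 0.462 against 59.4 ± 1.19 TPM. In both genes every knockdown library was above every control library, by small amounts. The log2 fold change of DVL1 was 0.15 (standard error 0.061, adjusted p 0.174 by limma, and 0.0387 with the block), and under the GC-content offset it was -0.00. DVL2 was at 91.6 ± 9.74 against 94.9 ± 5.76 TPM.

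CTNNB1 was at 235, 207 and 188 TPM after knockdown and 235, 218 and 220 TPM in controls, which placed it second to LRP5 among the members. Its groups overlapped, and the log2 fold change was -0.10 (standard error 0.092, adjusted p 0.519 by limma). The GC-content offset turned the sign, to 0.17, and with the block it then passed as higher (adjusted p 0.0316 by limma). The mRNA says nothing of the amount of beta-catenin protein, which the pathway sets by degradation.

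APC, the scaffold of the destruction complex, was at 3.33, 0.649 and 0.929 TPM in knockdown libraries and at 4.5, 2.87 and 3.06 TPM in controls. Replicates 2 and 3 showed the larger gap, and knockdown replicate 1 lay within the range of the controls. The log2 fold change was -0.88 with a standard error of 0.38 and an adjusted p of 0.198 by limma, and the adjusted p was 0.0232 with the block. With the GC-content offset and the block the log2 fold change was -0.51 and the adjusted p 0.064.

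GSK3B and GSK3A encode the kinases that phosphorylate beta-catenin in this complex. GSK3B was at 7.53, 4.83 and 5.34 TPM after knockdown and 9.49, 7.98 and 8.4 TPM in controls, without overlap, a log2 fold change of -0.50 (adjusted p 0.133 by limma, and 0.0172 with the block). Under the GC-content offset with the block it was -0.19, with an adjusted p of 0.121. GSK3A was more abundant, at 98.8 ± 4.55 against 93.1 ± 3.45 TPM, and AXIN1 was at 34.3 ± 2.04 against 33.3 ± 2.65 TPM.

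TCF7L2 was the leading TCF factor, at 11.6, 14.6 and 14 TPM after knockdown and 13.9, 14.2 and 15.9 TPM in controls, for a log2 fold change of -0.13 (standard error 0.12, adjusted p 0.519 by limma). TCF7 was at 8.08 ± 1.34 against 6.67 ± 0.436 TPM and TCF7L1 at 4.30 ± 1.08 against 3.72 ± 0.567 TPM. LEF1 was at or under 0.0777 TPM in every library. None of the 3 tested factors was called on TPM, with or without the block, and TCF7 passed as higher in limma-voom on recovered reads with the block (log2 fold change 0.36, adjusted p 0.0042).

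DKK1, a secreted inhibitor that binds LRP5 and LRP6, had the largest positive fold change of the tested members, with the largest standard error on the log2 scale. It was at 126, 32.9 and 39.1 TPM after knockdown and at 41.8, 23.0 and 20.5 TPM in controls. The groups overlapped, since control replicate 1 lay above knockdown replicates 2 and 3, while the knockdown library was the higher one in all 3 pairs. The log2 fold change was 0.98 (standard error 0.53, adjusted p 0.282 by limma), and with the block the adjusted p was 0.0164. Under the GC-content offset the log2 fold change was 1.25, with an adjusted p by limma of 0.195 without the block and 0.00981 with it. In limma-voom with the block it was 1.2 (adjusted p 0.000729). Without knockdown replicate 1 the log2 fold change was 0.39. With both libraries of replicate 1 removed, a fit added after seeing the data, it was 0.70 with an adjusted p of 0.0103 by limma.

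AXIN2, widely used as a readout of beta-catenin signalling, was at 30.1, 14.4 and 13.4 TPM after knockdown and 19.0, 10.4 and 12.7 TPM in controls. Replicate 1 was again the highest library in both groups. The log2 fold change of 0.38 (standard error 0.34) had an adjusted p of 0.509 by limma and of 0.0527 with the block, so it was not called in either fit. In limma-voom with the block it passed as higher (log2 fold change 0.52, adjusted p 0.00313), and the knockdown library was the higher one in all 3 pairs. NOTUM, an enzyme that inactivates Wnt proteins, was lowest in replicate 1 of both groups, at 10.2 TPM after knockdown and 14.6 TPM in controls, and its means were 19.2 ± 7.87 and 18.6 ± 3.45 TPM. NKD1 lay near 1 TPM, and SP5 was at or under 0.0463 TPM in every library. Summed over the 5 feedback genes, knockdown libraries held 167, 72.8 and 76.4 TPM and controls 76.4, 54.8 and 54.8 TPM, a sum that DKK1 dominated in replicate 1.

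VANGL1, a membrane protein of planar cell polarity, was at 14.5, 10.8 and 10.8 TPM after knockdown and 15.4, 12.4 and 12.6 TPM in controls. Its log2 fold change was -0.16 (standard error 0.15, adjusted p 0.528 by limma). VANGL2 was at 0.0244 TPM in control replicate 1 and at 0 in the others. PRICKLE1 was at 0.127 to 0.504 TPM, so VANGL1 was the main one of the 3 polarity genes.

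Across the 34 tested members, 21 log2 fold changes were negative and 13 positive, with a median of -0.05 against -0.08 for all 13980 genes. Upper-quartile scaling made the split 16 against 18, and the GC-content offset 17 against 17. The groups did not overlap for 7 members that were lower (ROR1, WNT3, WNT5A, FZD4, FZD6, LRP6 and GSK3B) and 2 that were higher (DVL1 and DVL3). Over all genes tested, 22.3% were lower and 9.58% higher without overlap. The knockdown library was the lower one in 3 of 3 pairs for 15 members and the higher one for 10, against 43.7% and 22.0% of all genes. With the replicate block, 6 members were called lower (ROR1, WNT3, FZD6, LRP6, APC and GSK3B) and 3 higher (FZD2, DVL1 and DKK1), where 25.0% and 9.94% of all genes were called. Neither share of the members exceeded that of genes in general. With the block and the GC-content offset together, 4 members were called lower (ROR1, WNT3, LRP6 and DVL2) and 4 higher (RYK, FZD2, CTNNB1 and DKK1), where 12.1% and 12.6% of all genes were. In limma-voom on recovered reads with the block, 6 were called lower (again ROR1, WNT3, FZD6, LRP6, APC and GSK3B) and 9 higher (WNT7B, FZD2, LRP5, DVL1, DVL3, GSK3A, TCF7, AXIN2 and DKK1), where 20.5% and 17.5% of all genes were. With both libraries of replicate 1 removed, 8 were lower and 4 higher, where 25.3% and 9.68% of all genes were.

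The fold changes followed the GC content of the transcripts over the whole table. Spearman's rho between log2 fold change and GC content of the longest transcript was 0.635 across 13163 genes, which share the same 6 libraries and are not independent. Of the 12 members with under 45% GC, 11 had a negative log2 fold change (median -0.25, against 90.5% negative and a median of -0.34 for all such genes). Of the 11 with over 55% GC, 2 were negative (median 0.1, against 31.5% and 0.09). ROR1 at 44.1% GC and LRP6 at 40.2% fell in the low class, as did DKK1 at 43.5%, which lay well above the trend. FZD2 lay in the high class, at 64.9% GC. The part that GC content has in these differences was not tested beyond the offset.

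A list of 153 other Wnt pathway genes was read from the same fit. The genes were set by role and not by how they moved, though with earlier results of these data known. Of these, 100 were tested. At an adjusted p under 0.05, 2 were called lower and 0 higher by limma, against 0.629% and 0.25% of all genes, and 36 were past an unadjusted p of 0.05, as were 26.1% of all genes. Their median log2 fold change was -0.12, and 65 values were negative and 35 positive. With the block 33 were called lower and 15 higher, where 25.0% and 9.94% of all genes were, and with the GC-content offset as well these counts were 17 and 13.

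The 2 called genes both belong to the branches that do not need beta-catenin. MAPK9, which encodes the kinase JNK2, was at 16, 15.7 and 15.3 TPM after knockdown and 25.9, 23.0 and 25.2 TPM in controls, a log2 fold change of -0.62 (standard error 0.081, adjusted p 0.0451 by limma). NFATC3, a calcium-regulated transcription factor, was at 20.1, 18 and 17.9 TPM against 30.4, 27.1 and 28.8 TPM, a log2 fold change of -0.60 (standard error 0.087, adjusted p 0.0451 by limma). Neither group of libraries overlapped the other for these genes. Without the block, the GC-content offset took the adjusted p to 0.0902 for MAPK9 and 0.0651 for NFATC3, and leaving out any single library other than knockdown replicate 1 took both past 0.05, to 0.222 at most.

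Among the other related genes whose groups did not overlap, the largest negative values were those of USP34, NRCAM and MAP3K7. USP34, a deubiquitinase that acts on AXIN, was at 13.3, 4.51 and 7.21 TPM after knockdown and 22.6, 14.8 and 16.7 TPM in controls, a log2 fold change of -1.12 (adjusted p 0.119 by limma, and 0.00765 with the block). NRCAM, a cell adhesion gene, was at 26.6 ± 6.85 against 45.4 ± 4.1 TPM, a log2 fold change of -0.78 (adjusted p 0.0751, and 0.00646 with the block). MAP3K7, the kinase TAK1, was at 10.5 ± 3.73 against 17.4 ± 2.37 TPM, a log2 fold change of -0.72 (adjusted p 0.122, and 0.00935 with the block). Under the GC-content offset these log2 fold changes were -0.76 for USP34, -0.46 for NRCAM and -0.33 for MAP3K7.

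The largest positive value was that of JUN, a TCF target and component of AP-1. JUN was at 198, 92.6 and 123 TPM after knockdown and 71.6, 49.4 and 56.5 TPM in controls, a log2 fold change of 1.15 (standard error 0.28, adjusted p 0.0835 by limma, and 0.00452 with the block). The co-receptor gene LRP4 was at 20.7 ± 2.48 against 13.7 ± 1.38 TPM, a log2 fold change of 0.56 (adjusted p 0.0674, and 0.0054 with the block). BCL9L, a beta-catenin coactivator, was at 73.7 ± 5.69 against 50.4 ± 2.74 TPM, a log2 fold change of 0.54 (adjusted p 0.0512, and 0.00481 with the block). DKK3, a relative of DKK1, was at 34.4 ± 0.223 against 24.6 ± 1.86 TPM, a log2 fold change of 0.47 (adjusted p 0.0544 by limma, and 0.00693 with the block). BMP4 was at 16.9 ± 3.73 against 11.9 ± 0.755 TPM, a log2 fold change of 0.46. DKK3 was called in 8 of 16 alternatives and BMP4 in 2.

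The roles of the related genes called with the block were these, to be read against 25.0% of all genes called lower and 9.94% higher. Of 23 tested partners of the destruction complex, 14 were lower and 3 higher, and of 25 genes of the polarity and calcium branch, 9 were lower and 0 higher. Of 17 general TCF targets, 6 were higher and 2 lower, and of 21 nuclear partners of beta-catenin, 3 were higher and 6 lower. With the GC-content offset as well, where 12.1% of all genes were lower and 12.6% higher, the partners of the destruction complex stood at 6 lower and 3 higher and the polarity and calcium genes at 4 lower and 1 higher. The general TCF targets then stood at 3 higher and 2 lower, and the nuclear partners of beta-catenin at 2 higher and 5 lower. Of the 14 other Wnt ligands 1 was high enough to test, of 13 secreted inhibitors 2, and of 10 liver beta-catenin targets 3, so most of the pathway's ligands, inhibitors and liver targets had little mRNA in these cells.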

How the data were processed

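PolyA-Seq data from 6 HCCLM3-SR libraries, 3 with cDCBLD2 knockdown and 3 with control siRNA, were grouped by the sample labels. The authors deposited TPM values per gene, 38637 genes with each library summing to 1000000. The submitters' processing notes name fastp 0.20.1, HISAT2 2.1.0, StringTie 2.0 and the build hg38, without roles, and the paper names DESeq2 for its test. The annotation and the strand and multimapping settings are not given in the sources used here, so paralogues and overlapping genes may share reads.

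The members and gene lists were chosen with earlier results of these data known. DESeq2 was not run, since the values are not counts. Instead, limma 3.58.1 in R 4.3.3 was fitted to log2(TPM + 1), allowing the variance to follow the mean, for the 13980 genes whose mean reached 1 TPM, with Benjamini-Hochberg adjustment. Single-value exact permutation tests were not run, since 3 against 3 libraries cannot give a two-sided p under 0.1. The replicate numbers in the labels were taken as pairs, because the deviations of same-numbered libraries from their group means correlated at 0.56, 0.343 and 0.362. What the numbers stand for is not given in the sources used here.

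Reads were recovered from the ratios of TPM values between libraries, as the smallest whole numbers that fit. Of the 17285 genes above 0 in all libraries, 100% came out whole within a tolerance of 0.02. With a stricter limit of 5000 reads 97.0% of 2000 genes did, and 0% with library factors moved by up to 10%. Intervals and limits from reads cover counting error only. Limma-voom on these reads was an alternative, with genes of at least 10 reads in 3 libraries and median-of-ratios size factors.

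Transcript GC content came from the longest GENCODE 29 transcript, found for 94.2% of the genes tested, and its trend in each library was subtracted by loess (span 0.5). Other alternatives were a pseudocount of 0.1, no filter, a mean of at least 5 TPM, upper-quartile scaling and leaving out each library. Values in every library are given for ROR1 and ROR2, for tested members whose log2 fold change reached 0.5 in size, and for the highest member of each role. Of the related genes, those called and, in each direction, the 5 with the largest fold change among those without overlap are named. WNT3, WNT5A, GSK3B, LGR5 and AXIN2 were shown in full after their values were seen. On simulated data over 13980 genes with 200 changed by a log2 fold change of 1.5 in size, the fit called 100% of them, or 67% with a replicate effect of SD 0.3, and 100% of those with the block. Of the calls at that SD, 7.8% fell on unchanged genes with the block and 0% without it. The simulated effects were independent between replicate numbers, unlike the shift of replicate 1 in these data. Protein sequences were not analysed here, and the values of 1 marker gene are not reported here. The software was Python 3.11.15, pandas 2.3.3, numpy 2.4.6, numba 0.67.0 and matplotlib 3.10.9.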

Additional observations from a re-analysis of the deposited data

How the results depend on the processing

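ROR1 stayed lower in all 16 alternatives, from -1.14 to -0.79 on the log2 scale, and was called in 9. With the replicate block on TPM 3 members were called higher and 6 lower, and the call of no other tested member changed. These counts were 4 and 4 with the block and the GC-content offset, and 9 and 6 in limma-voom with the block, where 17.5% and 20.5% of all genes were. With both libraries of replicate 1 removed, chosen after seeing the data, 4 members were higher and 8 lower, where 9.68% and 25.3% of all genes were. Members called lower numbered 0 with the GC-content offset alone and 0 without a filter. In these settings 4 of 13163 and 4 of 25278 genes were called in either direction, and 20.9% and 16.5% had an unadjusted p under 0.05. Of the tested members, 7 and 8 had such a p, in either direction. Members called lower numbered 2 in limma-voom and 2 with a mean of at least 5 TPM. There, 452 of 15018 and 321 of 10245 genes were called in either direction. Leaving out 1 library gave 0 to 1 members higher and 0 to 7 lower, the highest counts without knockdown replicate 1. In that fit 3420 of 13980 genes were called in either direction. Any other library left out gave 0 calls by limma over all genes, with 2161 to 2803 genes at an unadjusted p under 0.05. Of the related genes, 15 were higher and 33 lower with the block, 13 and 17 with the offset as well, 23 and 29 in limma-voom with the block, and 12 and 30 without both replicate 1 libraries. Over all genes the shares called higher and lower were, in that order, 9.94% and 25.0%, 12.6% and 12.1%, 17.5% and 20.5%, and 9.68% and 25.3%. Related genes called higher numbered 1 with a pseudocount of 0.1, 2 with a mean of at least 5 TPM, 2 with upper-quartile scaling and 3 in limma-voom. In either direction, 149 of 13980 genes were called with that pseudocount and 121 of 13980 with upper-quartile scaling, beside the 321 and 452 given above. Related genes called lower numbered 0 with the GC-content offset alone and 0 without a filter, where 4 genes were called in each setting. Leaving out 1 library gave 0 to 8 related genes higher and 0 to 27 lower, again highest without knockdown replicate 1, where 3420 of 13980 genes were called. The members' median log2 fold change moved from -0.05 to 0.02 with upper-quartile scaling, 0.04 in limma-voom and 0.05 in limma-voom with the block. The limma-voom medians cover 37 members. Over all genes the median moved likewise, from -0.08 to -0.02, 0.0 and 0.0 in the same settings. The causes were not tested. Reads limit the values of ROR2, LEF1, SP5, VANGL2, FZD8 and WNT5B.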
